A study of Mus musculus with 19 samples.

Results

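The genes described here are the transcription factor p63 (Trp63), 4 keratins of basal epithelial cells (Krt5, Krt14, Krt15 and Krt17) and 4 keratins of simple epithelium (Krt7, Krt8, Krt18 and Krt19). They were chosen by name from the deposited count table of mouse lung RNA. All 9 of the 9 names were found among the 49585 genes of the table. The rule used names alone, but the members were chosen with earlier results of these data known. The study asked what partial loss of Has2, a hyaluronan synthase, does to the lung in chronic allergic airway inflammation. Lung RNA was sequenced from 5 Has2+/- mice given ovalbumin (Has2+/- OVA), 5 wild type mice given ovalbumin (WT OVA), 4 Has2+/- mice given saline (Has2+/- saline) and 5 wild type mice given saline (WT saline), with 1 library per mouse. All were female Balb/c mice aged 6 to 8 weeks at the start. OVA mice were sensitized by intraperitoneal OVA in alum on days 1 and 15 and challenged intranasally on 5 days a week for 8 weeks, and their controls received saline by the same routes. Has2+/- mice carry 1 intact copy of Has2, since loss of both is lethal in the embryo, and came from at least 8 generations of backcrossing to Balb/c. Lungs were taken 24 h after the last challenge and homogenized whole, so airway, alveolar, pleural, vascular and immune cells share each library.

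Keratins form the intermediate filaments of epithelial cells, and each filament is built from pairs of a type I and a type II keratin. Basal cells, which sit on the basement membrane of the airway and renew its epithelium, are known by p63 and by the Krt5 and Krt14 pair, and in mice they lie mainly in the trachea and large bronchi. Simple keratins, led by the Krt8 and Krt18 pair, are made by airway and alveolar epithelium and by the mesothelium that covers the lung.

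The type II genes Krt5 (chr15:101707070-101712891, minus strand), Krt7 (chr15:101411043-101430313, plus strand) and Krt8 (chr15:101996711-102004342, minus strand) lie on chromosome 15, with the type I gene Krt18 (chr15:102028216-102032026, plus strand) beside Krt8. The other type I genes, Krt14 (chr11:100203162-100207548), Krt15 (chr11:100131758-100135928), Krt17 (chr11:100256217-100261029) and Krt19 (chr11:100140810-100148665), lie on the minus strand of chromosome 11. Trp63 is on the plus strand of chromosome 16 (chr16:25683763-25892102). All positions are on mm10. The RefSeq promoter table (GRCm38.p6) held windows for 5 of the 9 genes, each of 300 bases with 250 before and 50 after the annotated start. Windows of 4 genes are shown. The mRNAs of the first pair moved in opposite directions in WT OVA against WT saline lungs. The second pair encodes partner keratins that share a filament. Each window is written 5′ to 3′ on the strand of its gene, and capitals mark every match to the motifs searched on both strands.
Krt5 (chr15:101712856-101713155, minus strand): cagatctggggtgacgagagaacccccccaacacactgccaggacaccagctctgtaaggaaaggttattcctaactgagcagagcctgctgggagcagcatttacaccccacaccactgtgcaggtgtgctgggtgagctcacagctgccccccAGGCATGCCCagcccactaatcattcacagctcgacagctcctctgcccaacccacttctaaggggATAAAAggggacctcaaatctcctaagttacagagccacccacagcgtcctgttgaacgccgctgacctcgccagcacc
Krt7 (chr15:101412153-101412452, plus strand): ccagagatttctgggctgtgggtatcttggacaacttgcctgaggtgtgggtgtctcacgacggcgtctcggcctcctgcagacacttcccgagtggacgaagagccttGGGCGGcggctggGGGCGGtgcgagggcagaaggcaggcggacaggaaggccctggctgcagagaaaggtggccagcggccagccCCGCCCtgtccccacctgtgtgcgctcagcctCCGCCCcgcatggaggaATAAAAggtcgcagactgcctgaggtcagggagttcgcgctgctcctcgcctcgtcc
Krt8 (chr15:102004293-102004592, minus strand): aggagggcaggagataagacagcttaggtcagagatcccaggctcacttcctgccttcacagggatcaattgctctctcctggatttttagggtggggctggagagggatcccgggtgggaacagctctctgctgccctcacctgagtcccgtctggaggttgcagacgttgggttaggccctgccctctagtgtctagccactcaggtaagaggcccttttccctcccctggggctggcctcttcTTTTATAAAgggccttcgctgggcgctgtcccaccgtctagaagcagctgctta
Krt18 (chr15:102027966-102028265, plus strand): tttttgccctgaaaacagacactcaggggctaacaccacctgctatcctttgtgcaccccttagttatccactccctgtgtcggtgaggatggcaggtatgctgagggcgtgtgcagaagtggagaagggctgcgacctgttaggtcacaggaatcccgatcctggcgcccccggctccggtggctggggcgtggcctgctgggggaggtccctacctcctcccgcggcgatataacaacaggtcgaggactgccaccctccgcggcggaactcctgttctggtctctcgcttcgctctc

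The motifs searched were the TATA box TATAAA and its variant ATAAAA, the GC box GGGCGG, the AP-1 motif TGANTCA and, by name, the decamer of the p53 family, to which p63 belongs. The Krt5 window held ATAAAA from position -29 relative to the start and the p53 family decamer AGGCATGCCC from position -95. The Krt7 window held 4 GC boxes, 2 on each strand, from positions -141, -128, -56 and -24, and ATAAAA from position -7. This window lies inside the Krt7 gene span given above, downstream of its 5′ end, so these positions refer to the RefSeq start alone. In the Krt8 window the TATAAA matches on both strands and an ATAAAA match on the opposite strand overlap in 1 run from position -4, and the Krt18 window held no match. Of the 32851 promoters of this length in the table, 8.36% held the p53 family decamer, 35.7% the GC box, 13.6% TATAAA, 18.5% ATAAAA and 7.81% the AP-1 motif. A match describes the letters of the window and is no evidence that a factor binds there.

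The 19 libraries held 4446534 to 7048676 counts per library (median 5493263). They are named here by their running number, with libraries 15 to 19 from Has2+/- OVA, 10 to 14 from WT OVA, 6 to 9 from Has2+/- saline and 1 to 5 from WT saline mice. Has2 itself had 3 to 9 counts per library in Has2+/- OVA and 2 to 10 in WT OVA lungs, and 2 to 7 in Has2+/- saline and 1 to 4 in WT saline lungs, too few to check the genotype labels. Has2+/- saline library 9 held 22800 CPM of summed club cell genes (secretory cells of the airway), against 11000 to 12900 CPM in the other Has2+/- saline libraries. Has2+/- OVA library 18 held 38.1 CPM of 10 summed thymus genes, against 7.30 to 8.18 CPM in the other 4 libraries of its group. Levels are given in CPM, counts scaled to a common library size with TMM factors.

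Per kilobase of the principal transcript, the 4 simple keratins stood far above the basal genes in every library. Krt19 was the most abundant (84.4 CPM per kb over the 19 libraries), followed by Krt7 (62.7), Krt18 (56.9) and Krt8 (47.1). Krt19 exceeded Krt7 in 19 of 19 libraries and Krt18 exceeded Krt8 in 19 of 19, while Krt7 and Krt18 could not be ordered (Krt7 higher in 9 of 19). This order depends on the transcript length used, 4.09 kb for Krt7 and 1.58 kb for Krt19. In CPM not divided by length, the group means were 205.5 to 312.4 for Krt7 and 106.6 to 164.6 for Krt19. Krt8 then also averaged above Krt18 in every group. The basal genes followed after a gap, with Krt15 at 1.45, Krt5 at 1.28, Trp63 at 0.383, Krt14 at 0.234 and Krt17 at 0.175 CPM per kb. Krt8 exceeded Krt15 in 19 of 19 libraries with no overlap of their ranges, and Krt5 exceeded Trp63 in 19 of 19, but Krt15 and Krt5 (13 of 19), Trp63 and Krt14 (12 of 19) and Krt14 and Krt17 (9 of 19) were not separated beyond their spread.

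**Figure D1:**
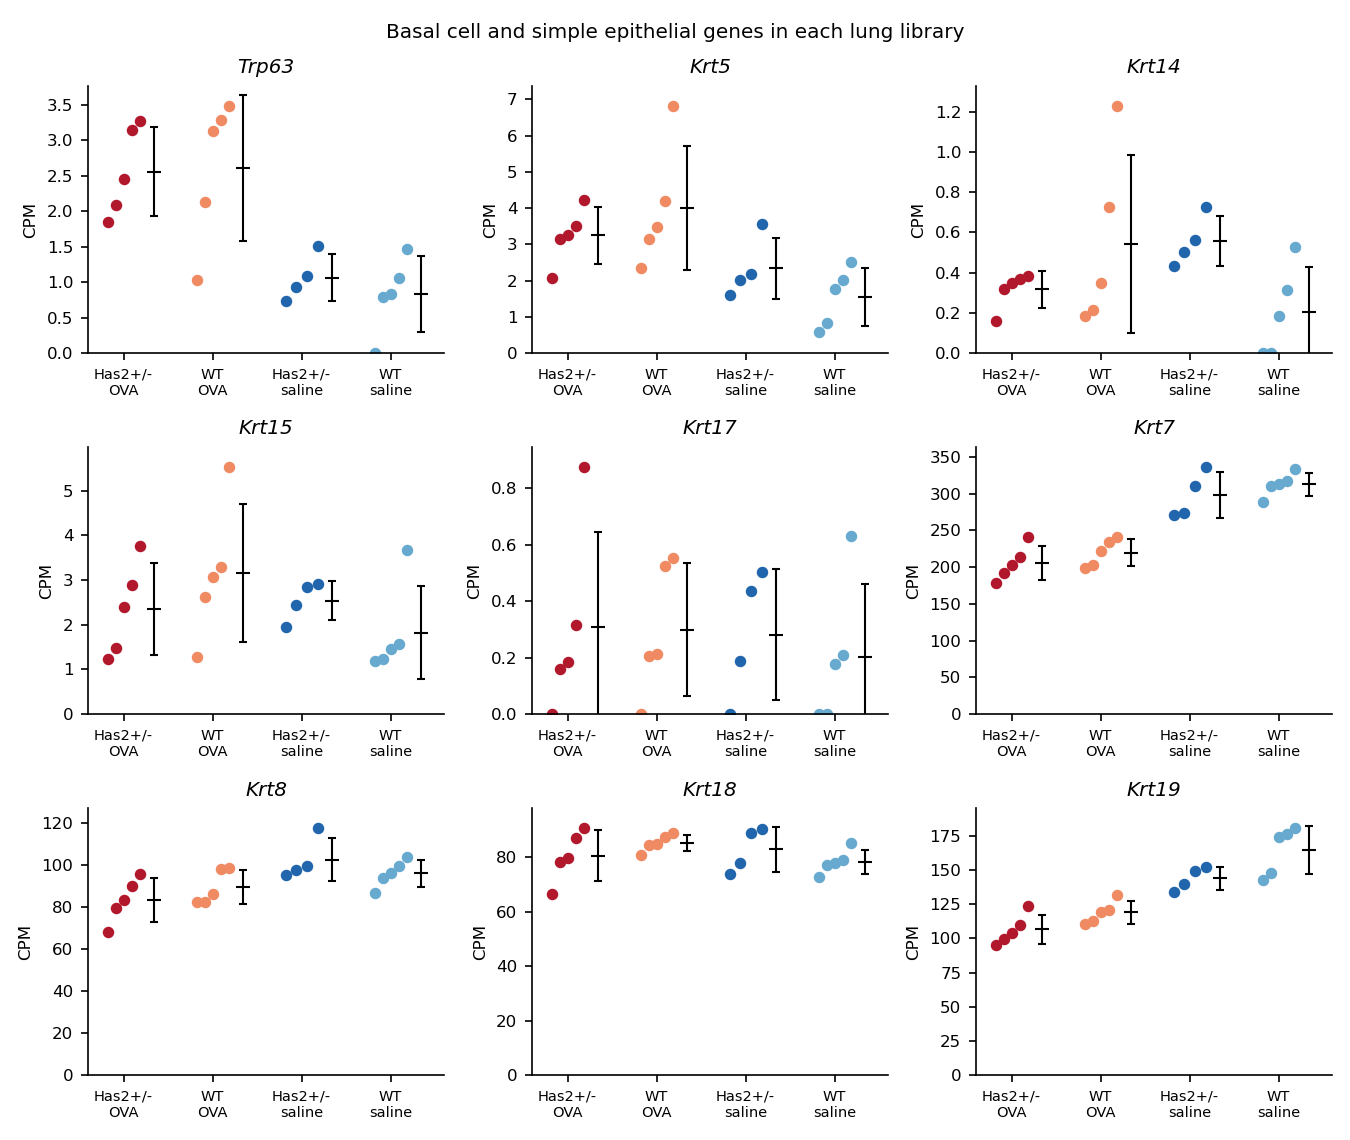
Level of each of the 9 genes in CPM (y axis, from 0) in every library, by group (x axis), with a point per library and a bar for the mean and SD. Krt7 and Krt19 lie lower in both OVA groups than in their saline groups without overlap, while Trp63 averages 2.56 and 2.61 CPM in the OVA groups against 1.06 and 0.829 CPM in the saline groups.

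In WT mice given OVA the simple keratins Krt7 and Krt19 were lower and the basal cell genes Krt5 and Trp63 higher than in WT saline mice, the basal genes on few counts, while Krt8, Krt18 and Krt15 did not pass the test. In Has2+/- mice Krt7 and Krt19 fell and no member was called higher. A gene is called here at an adjusted p under 0.01 with a fold above 1.2, by edgeR's quasi-likelihood test over 14495 genes. With 7 members holding enough counts to test, WT OVA against WT saline gave 2 called higher and 2 called lower, where 21.9% of all genes tested were called (12% higher and 9.95% lower). In Has2+/- OVA against Has2+/- saline, 0 were called higher and 2 lower, where 18.2% of all genes were called (10.5% higher and 7.72% lower). Trp63 reached the level of the filter, 1.82 CPM before scaling, in 9 OVA libraries and in 0 saline libraries, so it passed the filter through the groups in which it was high, and the counts of members called are a description and no support for a change in these genes. In whole lung, fewer cells of a type and less RNA per cell cannot be told apart.

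Trp63 encodes p63, the transcription factor that maintains the basal cell state. It had 13, 10, 14, 20 and 17 counts in Has2+/- OVA libraries and 10, 17, 5, 20 and 18 in WT OVA libraries, against 5, 5, 9 and 5 in Has2+/- saline and 8, 6, 0, 4 and 5 in WT saline libraries. The 5 Has2+/- OVA libraries all lay above the 4 Has2+/- saline libraries (11% of all genes were higher without overlap there), and in WT mice only library 12, at 5 counts, lay within the saline range. Trp63 was 3.09-fold higher in WT OVA than in WT saline lungs (log2 fold change 1.63, SE 0.42, 95% interval 0.76 to 2.50, edgeR adjusted p = 0.00439). In a fit with no filter, which it enters whatever its level, the log2 fold change was 1.63 (SE 0.42, edgeR adjusted p = 0.00500). In Has2+/- OVA against Has2+/- saline lungs the log2 fold change was 1.26 (SE 0.42, interval 0.38 to 2.14, edgeR adjusted p = 0.0289), which did not pass. The WT call was lost when library 4, 5, 11, 13 or 14 was left out (edgeR adjusted p = 0.0101 to 0.0147). Trp63 was not tested, and so not called, under a filter of 20 counts in 4 libraries and in the fit of only the WT OVA and WT saline groups, where it fell below the filter. Without library 3, which had no count, the Has2+/- difference passed (edgeR adjusted p = 0.00947).

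Krt5, the type II keratin of basal cells, had 13, 17, 20, 27 and 17 counts in Has2+/- OVA and 11, 37, 17, 18 and 23 in WT OVA libraries, against 11, 19, 12 and 10 in Has2+/- saline and 11, 10, 3, 4 and 16 in WT saline libraries. All groups overlapped, and the highest value was that of WT OVA library 11 (6.83 CPM). The group means were 3.25 ± 0.78 CPM (SD, n = 5) in Has2+/- OVA against 2.33 ± 0.85 CPM (n = 4) in Has2+/- saline lungs, and 4.00 ± 1.72 CPM (n = 5) in WT OVA against 1.55 ± 0.81 CPM (n = 5) in WT saline lungs. Krt5 rose 2.51-fold in WT OVA over WT saline lungs (log2 fold change 1.33, SE 0.35, interval 0.60 to 2.05, edgeR adjusted p = 0.00532). In Has2+/- OVA against Has2+/- saline lungs the difference of 0.49 (SE 0.35, interval -0.25 to 1.23, edgeR adjusted p = 0.323) did not pass. The WT call was lost without library 3, 4, 11 or 14 (edgeR adjusted p = 0.0102 to 0.0268) and in a fit of only the groups compared (edgeR adjusted p = 0.0108). Of the 36-base words of Krt5, the length of the reads, 14.3% also occur in other genes, mainly Krt6a, which had 1 count in all libraries together.

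Krt15, a type I keratin of basal cells and their progeny, was measured at 1.23 to 3.77 CPM in Has2+/- OVA and 1.28 to 5.53 CPM in WT OVA libraries, against 1.96 to 2.91 CPM in Has2+/- saline and 1.19 to 3.67 CPM in WT saline libraries. The groups overlapped. The log2 fold change was 0.79 in WT OVA against WT saline (SE 0.38, edgeR adjusted p = 0.111) and -0.11 in Has2+/- OVA against Has2+/- saline (SE 0.39, edgeR adjusted p = 0.863). Library 11 held the highest value of both Krt15 and Krt5.

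Krt14, the type I partner of Krt5 in basal cells, had 1 to 2 counts per library in Has2+/- OVA, 1 to 6 in WT OVA, 2 to 5 in Has2+/- saline and 0 to 3 in WT saline lungs, too few for the test across genes. By an exact permutation test, two-sided, Krt14 was lower in Has2+/- OVA (0.316 ± 0.092 CPM, SD, n = 5) than in Has2+/- saline lungs (0.556 ± 0.125 CPM, n = 4, p = 0.0159, the smallest this design allows), a difference of at most 4 counts per library. It averaged 0.556 CPM in Has2+/- saline against 0.206 CPM in WT saline lungs (exact permutation p = 0.0476) and 0.541 CPM in WT OVA against 0.206 CPM in WT saline lungs (exact permutation p = 0.143). These are 3 of 8 such tests of Krt14 and Krt17, without adjustment, and with no filter edgeR gave adjusted p of 0.458, 0.827 and 0.224 for them. Krt14 shares 23.9% of its 36-base words with other genes, mainly Krt16, which had 0 counts. Krt17, a keratin of basal and injured epithelium, had 0 to 5 counts per library in every group, and a difference in Krt17 was not detectable at this depth (exact permutation p of 0.595 or more in all 4 comparisons of groups).

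**Figure D2:**
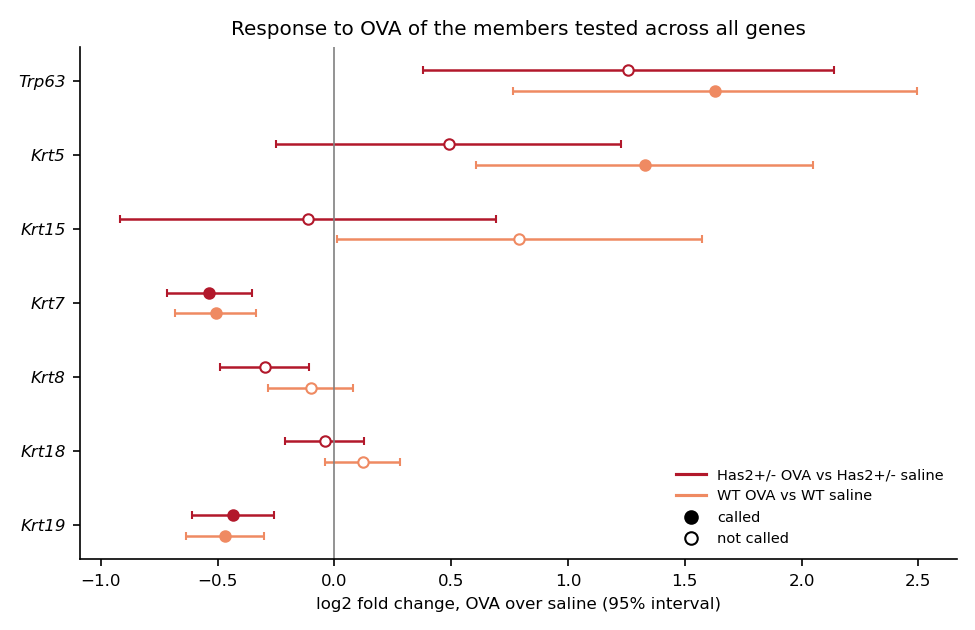
Log2 fold change of OVA over saline (x axis) for the 7 members tested (y axis), in Has2+/- mice (upper line of each pair) and WT mice (lower line), with 95% intervals; filled points passed an adjusted p of 0.01 and a fold of 1.2. Krt7 and Krt19 are narrow and below 0 in both genotypes, and the intervals of Trp63, Krt5 and Krt15 are several times wider.

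Krt7 is a type II keratin of simple and ductal epithelium and of mesothelium. It was measured at 191, 203, 241, 179 and 213 CPM in Has2+/- OVA and at 202, 199, 222, 234 and 240.4 CPM in WT OVA libraries, against 336.5, 271, 311 and 274 CPM in Has2+/- saline and 289, 313, 317, 334 and 309.7 CPM in WT saline libraries. Every OVA library lay below every saline library of either genotype. Of all genes, 13.4% were lower without overlap in WT OVA against WT saline and 7.33% in Has2+/- OVA against Has2+/- saline. Krt7 fell to 0.703 times the WT saline level in WT OVA lungs (log2 fold change -0.51, SE 0.08, interval -0.68 to -0.34, edgeR adjusted p = 8.05e-05). In Has2+/- OVA lungs it fell to 0.689 times the Has2+/- saline level (log2 fold change -0.54, SE 0.09, interval -0.72 to -0.35, edgeR adjusted p = 0.000115).

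Krt19, the shortest type I keratin, which lacks most of the tail domain, moved with Krt7 between the groups. It was measured at 104, 99.8, 110.1, 95.4 and 123.5 CPM in Has2+/- OVA and at 132, 113, 119, 111 and 121 CPM in WT OVA libraries, against 149, 134, 139.9 and 153 CPM in Has2+/- saline and 181, 176, 175, 143 and 148 CPM in WT saline libraries. The OVA and saline libraries did not overlap within either genotype. Krt19 fell to 0.723 times in WT OVA against WT saline lungs (log2 fold change -0.47, SE 0.08, edgeR adjusted p = 0.000132) and to 0.740 times in Has2+/- OVA against Has2+/- saline lungs (log2 fold change -0.43, SE 0.08, edgeR adjusted p = 0.000624). Both Krt7 and Krt19 were called under each alternative setting and without each single library, with the log2 fold changes of Krt7 between -0.60 and -0.46 and those of Krt19 between -0.51 and -0.39.

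Krt8 and Krt18 are partners in the filaments of simple epithelium. Krt8 was measured at 79.4, 83.1, 95.8, 68.2 and 89.9 CPM in Has2+/- OVA libraries, against 95.2, 99.6, 97.6 and 118 CPM in Has2+/- saline libraries. The groups overlapped by 1 library, library 17 at 95.8 CPM, and the log2 fold change of -0.30 (SE 0.09, interval -0.49 to -0.11, edgeR adjusted p = 0.0176) did not pass, though it did with DESeq2 (adjusted p = 0.00984) and with edgeR when library 17 was left out (adjusted p = 0.00790). In WT OVA lungs Krt8 averaged 89.3 ± 8.2 CPM against 95.9 ± 6.4 CPM in WT saline lungs (SD, n = 5 each; log2 fold change -0.10, SE 0.09, edgeR adjusted p = 0.390). Krt8 shares 33.9% of its 36-base words with other genes, mainly its pseudogene Krt8-ps, which had 0 counts.

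Krt18 averaged 80.5 ± 9.4 CPM (SD, n = 5) in Has2+/- OVA lungs against 82.9 ± 8.1 CPM (n = 4) in Has2+/- saline lungs, and 85.3 ± 3.0 CPM (n = 5) in WT OVA lungs against 78.4 ± 4.4 CPM (n = 5) in WT saline lungs. Neither OVA comparison passed, with log2 fold changes of 0.12 in WT mice (SE 0.08, interval -0.04 to 0.28, edgeR adjusted p = 0.238) and -0.04 in Has2+/- mice (SE 0.08, interval -0.21 to 0.13, edgeR adjusted p = 0.748). The groups overlapped in both genotypes.

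Ratios of CPM per kb taken within a library do not depend on its depth, and are given as a description with no test. The ratio of Krt8 to Krt18 was 0.730, 0.779, 0.806, 0.753 and 0.726 in Has2+/- OVA and 0.780, 0.689, 0.814, 0.716 and 0.846 in WT OVA libraries, against 0.944, 0.936, 0.791 and 0.971 in Has2+/- saline and 0.859, 0.984, 0.905, 0.872 and 0.872 in WT saline libraries. All 5 WT OVA libraries lay below the WT saline libraries, and in Has2+/- mice only saline library 8 lay within the OVA range. Krt19 to Krt18 was 1.15 to 1.31 in Has2+/- OVA and 1.18 to 1.48 in WT OVA libraries, against 1.41 to 1.84 in Has2+/- saline and 1.71 to 2.08 in WT saline libraries, without overlap in either genotype. Krt7 to Krt19, the pair that fell, overlapped in all groups (0.665 to 0.843 in Has2+/- OVA and 0.591 to 0.813 in WT OVA, against 0.691 to 0.869 in Has2+/- saline and 0.615 to 0.898 in WT saline libraries).

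**Figure D3:**
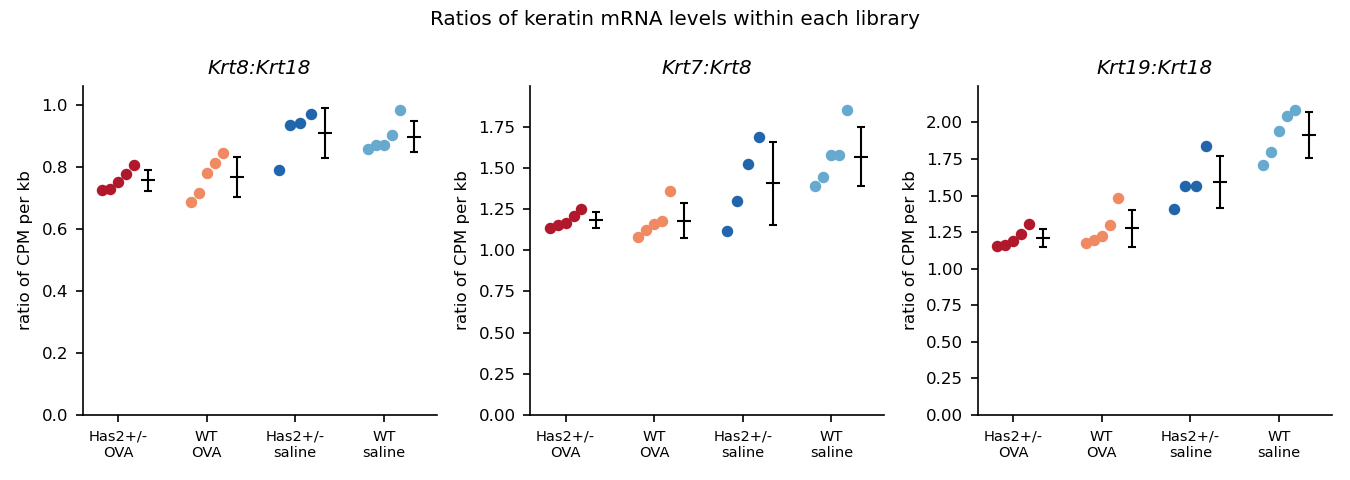
Ratio of CPM per kb within each library (y axis, from 0) of Krt8 to Krt18, Krt7 to Krt8 and Krt19 to Krt18, by group (x axis), with a point per library and a bar for the mean and SD. Krt19 to Krt18 averages 1.21 and 1.28 in the OVA groups against 1.59 and 1.91 in the saline groups.

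To set each member against the epithelial RNA of its own library, its log2(CPM + 0.5) was taken relative to the mean of 18 pan-epithelial genes (Epcam, Cdh1, claudins and others). That mean, compared by a two-sided exact permutation test, was 4.90 in WT OVA and 4.85 in WT saline lungs (p = 0.167), and 4.91 in Has2+/- OVA and 4.88 in Has2+/- saline lungs (exact p = 0.730). Taken singly, 17 of these genes were tested, and OVA against saline gave 1 call in each direction in Has2+/- mice and 3 higher and 1 lower in WT mice. Against it, Krt7 was lower by 0.57 on the log2 scale in WT OVA than in WT saline lungs and Krt19 by 0.52, and Krt8 differed by -0.16 (exact permutation p = 0.00794 each, the smallest possible). Trp63 was higher by 1.22 (exact permutation p = 0.0317) and Krt5 by 1.11 (p = 0.0159), and Krt18 by 0.07 (p = 0.0397). In Has2+/- mice Krt7 differed by -0.56, Krt19 by -0.46, Krt8 by -0.33 and Trp63 by 0.94 (exact permutation p = 0.0159 each, the smallest possible), Krt14 by -0.40 (p = 0.0317) and Krt5 by 0.39 (p = 0.206). Of 18 such tests, without adjustment, 11 were under 0.05. By edgeR, 6283 of 14495 genes in WT mice and 5754 in Has2+/- mice had an unadjusted p under 0.05 for OVA against saline. The exact test relative to pan-epithelial genes was not run over all genes, so the count of 11 is a description. The Krt18 difference in WT mice rested on the list, since relative to Epcam and Cdh1 alone it was 0.04 (exact permutation p = 0.349).

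No member was called between the genotypes. In Has2+/- OVA against WT OVA lungs 0 of 7 members were called, as were 0 of 14495 genes (0%), with 1120 genes at an unadjusted p under 0.05. In Has2+/- saline against WT saline lungs 0 of 7 and 0 of 14495 genes (0%) were called, with 1006 at an unadjusted p under 0.05, and DESeq2 called 0 members in either comparison. The genotypes overlapped in all 7 members, where 1.07% of all genes were higher and 0.835% lower without overlap in Has2+/- OVA against WT OVA, and 0.869% higher and 0.828% lower in Has2+/- saline against WT saline. The members' log2 fold changes in the OVA groups ran from -0.42 for Krt15 (interval -1.17 to 0.33) to -0.05 for Trp63 (interval -0.77 to 0.68). For Krt7 the interval of -0.27 to 0.08 and for Krt18 that of -0.24 to 0.08 were narrow, while those of Trp63, Krt5 and Krt15 were several times wider. In saline-treated lungs Krt19 differed by -0.19 (SE 0.08, interval -0.37 to -0.02, edgeR adjusted p = 0.688).

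The response to OVA was not shown to differ between the genotypes for any member, although Trp63 and Krt5 were called in WT mice alone. The interaction of genotype and OVA, tested directly, was -0.37 for Trp63 (SE 0.61, interval -1.64 to 0.89), -0.84 for Krt5 (SE 0.50, interval -1.88 to 0.20) and -0.90 for Krt15 (SE 0.54, interval -2.03 to 0.22), each with an edgeR adjusted p of 1.00 and unadjusted p of 0.5475, 0.109 and 0.109. For Krt7 it was -0.03 (interval -0.28 to 0.22) and for Krt19 0.03 (interval -0.21 to 0.28). No gene of 14495 passed this test (0%), and 594 had an unadjusted p under 0.05.

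Other genes of basal cells moved in both directions. In WT OVA against WT saline lungs 2 of 13 tested were higher and 6 lower (median log2 fold change -0.15, against 0.00 over all genes), and 2 higher and 3 lower in Has2+/- OVA against Has2+/- saline lungs (median -0.28). Trim29, a TRIM family protein of basal and squamous epithelium that macrophages also make, averaged 12.1 and 13.4 CPM in Has2+/- OVA and WT OVA lungs against 2.80 and 3.66 CPM in Has2+/- saline and WT saline lungs (log2 fold changes 2.12 and 1.86, edgeR adjusted p = 0.000157 and 0.000129). Ngfr, the nerve growth factor receptor used to sort airway basal cells, was called higher in WT OVA against WT saline lungs (1.26 on the log2 scale, edgeR adjusted p = 0.00824), and in Has2+/- OVA against Has2+/- saline lungs the change of 0.98 did not pass (edgeR adjusted p = 0.0521). Genes that fell in WT OVA lungs included Lamb3, a laminin chain of the basement membrane, by 0.44 on the log2 scale and Bcam, a laminin receptor, by 0.41, both of which other lung cells also make. Their changes of -0.28 and -0.30 in Has2+/- OVA lungs did not pass (edgeR adjusted p = 0.0522 and 0.0304). Of 9 targets of p63 tested, 0 were called higher in either genotype. In WT OVA lungs 2 were called lower (Fras1, by 0.51, and Ripk4, by 0.31 on the log2 scale). In Has2+/- OVA lungs 1 was called lower (Perp, a desmosomal p63 target, by 0.57). With so few genes, these counts are close to the shares over all genes and are a description.

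Few other keratins were measurable. Of 44 other type I and type II keratin genes in the table, 3 passed the filter. Krt80, a type II keratin of differentiated epithelium, fell in WT OVA lungs (87.3 CPM, against 139.6 CPM in WT saline lungs, log2 fold change -0.68, SE 0.19, edgeR adjusted p = 0.00958), and in Has2+/- OVA lungs the change of -0.67 did not pass (edgeR adjusted p = 0.0168). Krt23 changed by 0.44 in WT mice (edgeR adjusted p = 0.0177) and 0.40 in Has2+/- mice (adjusted p = 0.0418), and Krt79 by 0.19 and 0.60 (adjusted p = 0.733 and 0.309), none of them called.

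Of 11 genes tested that build desmosomes or link keratins to them, 4 were called lower and 1 higher in each genotype, with a median log2 fold change of -0.35 in WT OVA against WT saline and -0.31 in Has2+/- OVA against Has2+/- saline lungs. Ppl (periplakin) fell by 0.78 and Dsp (desmoplakin, which anchors keratin to the desmosome) by 0.36 on the log2 scale in WT OVA lungs, and by 0.76 and 0.36 in Has2+/- OVA lungs. Dsc2, a desmosomal cadherin, rose by 1.49 in WT OVA and 2.15 in Has2+/- OVA lungs.

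Squamous genes were sparse, with 5 of 26 tested. Of these 5, 3 were called higher in WT OVA lungs, where 12% of all genes were. Sprr2a3 held 0 to 1 counts per saline library and passed the filter through the OVA groups alone. The counts of squamous genes called are therefore a description. Tgm1, a transglutaminase of the cornified envelope, rose in both genotypes (log2 fold change 0.94 in WT OVA and 1.06 in Has2+/- OVA lungs, edgeR adjusted p = 0.000693 and 0.000551). Sprr2a3, a small proline-rich envelope protein with near-identical copies that can share its reads, averaged 6.18 CPM in WT OVA and 0.108 CPM in WT saline lungs (edgeR adjusted p = 3.72e-05), and in Has2+/- mice it averaged 3.24 CPM in OVA lungs with 0 counts in all 4 saline libraries. Ly6d, a surface protein of squamous epithelium and of some lymphocytes, was called higher in WT OVA against WT saline lungs (3.03 on the log2 scale, edgeR adjusted p = 0.000473). Its level was 5.77 ± 5.12 CPM (SD) in WT OVA and 0.693 ± 0.306 CPM in WT saline lungs. In Has2+/- mice Ly6d averaged 9.71 CPM in OVA and 4.11 CPM in saline lungs, and the change of 1.24 did not pass (edgeR adjusted p = 0.0450). In Has2+/- mice Tgm1 and Sprr2a3 were called higher and Tgm3, another transglutaminase, lower (0.308 CPM in OVA lungs against 5.13 CPM in saline lungs). The Has2+/- saline libraries varied widely in Tgm3 (SD 4.70 CPM, 2 to 78 counts). In WT mice Tgm3 averaged 0.538 CPM in OVA and 0.823 CPM in saline lungs (log2 fold change -0.63, edgeR adjusted p = 0.625). The summed level of the 26 genes was 36.4 to 42.8 CPM in Has2+/- OVA and 31.9 to 54.9 CPM in WT OVA libraries, against 20.1 to 35.2 CPM in Has2+/- saline and 14.4 to 18.9 CPM in WT saline libraries.

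Among cell types that make simple keratins, markers of alveolar type 1 and mesothelial cells were mostly called lower in OVA lungs, as Krt7 and Krt19 were, and those of alveolar type 2 and goblet cells were called in the higher direction or not at all. Of 9 genes of alveolar type 1 cells, the thin cells of gas exchange, 8 were called lower in each genotype, and their summed level was 3550 to 4020 CPM in Has2+/- OVA and 3340 to 4160 CPM in WT OVA libraries, against 4290 to 6040 CPM in Has2+/- saline and 5530 to 6300 CPM in WT saline libraries. Of 9 mesothelial genes 7 were called lower in WT OVA and 8 in Has2+/- OVA lungs, with summed levels of 208 to 229 CPM in Has2+/- OVA and 165 to 231 CPM in WT OVA libraries, against 337 to 442 CPM in Has2+/- saline and 299 to 372 CPM in WT saline libraries. Neither list overlapped between OVA and saline libraries of a genotype, and their median log2 fold changes were -0.76 and -0.63 in WT mice and -0.61 and -0.80 in Has2+/- mice. Of 8 club cell genes 4 were called lower in each genotype (median -0.44 in WT and -0.54 in Has2+/- mice). The part of these cells in the fall of Krt7 and Krt19 was not tested.

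Goblet cell genes went the other way, with 9 of 9 tested called higher in WT OVA and 8 of 9 in Has2+/- OVA lungs, and a summed level of 2420 to 4540 CPM in Has2+/- OVA and 3160 to 4910 CPM in WT OVA libraries, against 198 to 824 CPM in Has2+/- saline and 175 to 576 CPM in WT saline libraries. Muc5ac, the mucin of goblet cells, averaged 154.6 and 216 CPM in Has2+/- OVA and WT OVA lungs against 8.28 and 10.3 CPM in Has2+/- saline and WT saline lungs. Of 10 alveolar type 2 genes 4 were called higher in WT OVA and 6 in Has2+/- OVA lungs, and of 9 ciliated cell genes 0 were called in Has2+/- mice and 1, Tppp3, was called lower in WT mice. Of 13 genes of the Krt8-high transitional state, a stage between alveolar type 2 and type 1 cells seen after lung injury in mice, 4 were called higher in each genotype and 1 lower in WT OVA lungs, led by Lgals3 (galectin 3, also abundant in macrophages) at 381.9 and 499 CPM in Has2+/- OVA and WT OVA lungs against 52.9 and 64.8 CPM in Has2+/- saline and WT saline lungs.

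**Figure D4:**
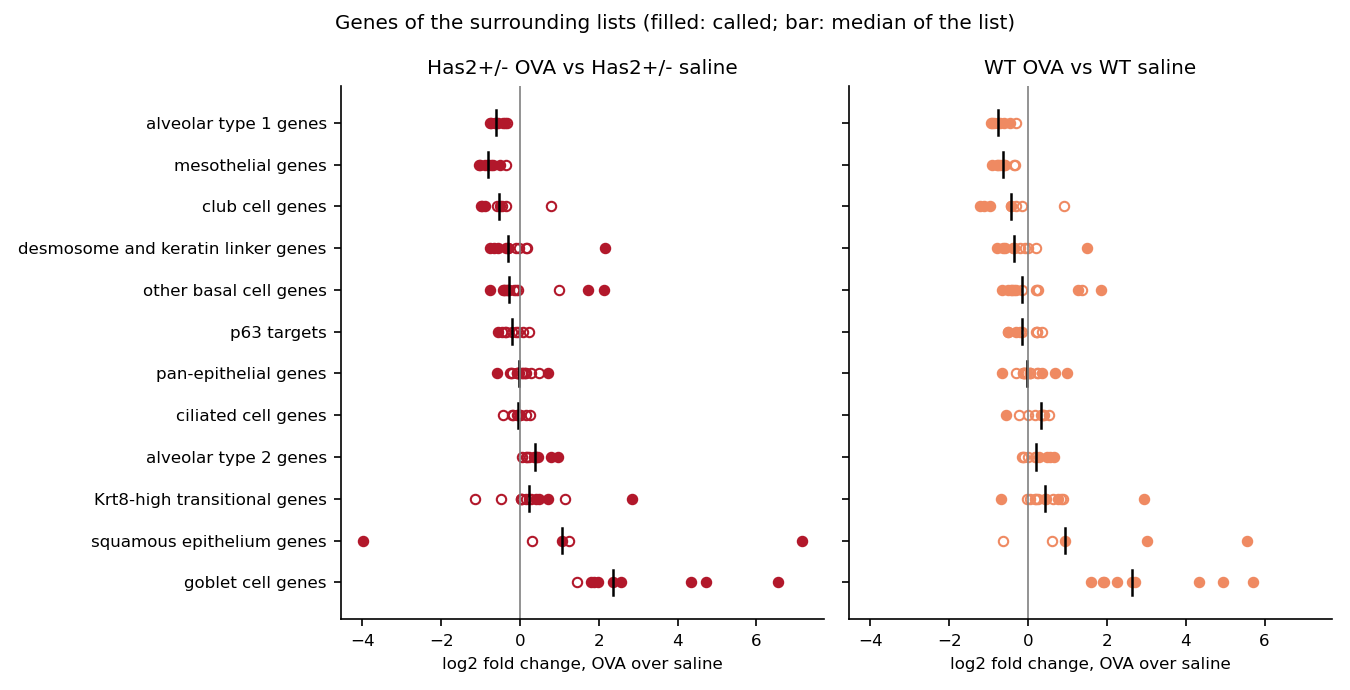
Log2 fold change of OVA over saline (x axis, shared) for each tested gene of 12 gene lists (y axis), in Has2+/- mice (left) and WT mice (right), with a point per gene, filled where called, and a bar at the median of the list. Alveolar type 1 and mesothelial genes all lie below 0 and goblet cell genes all above it in both genotypes; the rightmost squamous point in Has2+/- mice is Sprr2a3, whose saline libraries are all at 0, so its position depends on the prior count.

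Has2+/- OVA library 18, which held the thymus signal, also held the most Krt5 of its group (4.24 CPM, against 2.08 to 3.50 CPM in the other 4 libraries). Its Trp63 (3.14 CPM) was just below that of library 19 (3.27 CPM). Krt14 was lowest there within the group, at 0.157 CPM or 1 count. Among the summed thymus genes, Dntt, of developing T cells, reached 124 counts within this group (median 3). Genes of thymic epithelium in the same list stayed low across the group. Foxn1 and Psmb11 had 0 to 1 counts per library, Ccl25 8 to 11, Aire 2 to 8 and Prss16 2 to 12. Krt5 and Trp63 are known in thymic epithelium, and the part of thymic tissue in their values was not tested. Without library 18 the Has2+/- OVA against Has2+/- saline log2 fold change was 0.38 for Krt5 (edgeR adjusted p = 0.502), 1.18 for Trp63 (adjusted p = 0.0624), -0.48 for Krt7 (adjusted p = 0.000678) and -0.39 for Krt19 (adjusted p = 0.00319). Without Has2+/- saline library 9, which held the most club cell RNA, Krt7 was at -0.58 and Krt19 at -0.41, both still called by edgeR (adjusted p = 8.88e-05 and 0.00172).

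Within the groups, Krt8, Krt18 and Krt19 varied together from library to library, and Krt7 did so less. Over the 19 libraries, the deviations of log2(CPM + 0.5) from the group means correlated at 0.708 between Krt8 and Krt18, 0.629 between Krt8 and Krt19 and 0.501 between Krt18 and Krt19, but at 0.100 to 0.313 between Krt7 and these 3. The basal genes correlated at 0.519 for Trp63 and Krt5, 0.501 for Krt5 and Krt15 and 0.421 for Trp63 and Krt15. These are descriptions, since all genes of a library share its depth and its tissue composition. Of all genes tested, the 3 whose deviations were most like those of Trp63 were Traip (0.807), Dusp4 (0.779) and Papd4 (0.777), and for Krt5 they were Ugt1a7c (0.772), Eef1a2 (0.766) and Ddias (0.764). For Krt15 they were 9130401M01Rik (0.767), Ighv9-4 (0.751) and Rpusd2 (0.747). For Krt7 they were Sdk1 (0.874), Adgra2 (0.834) and Pcolce (0.830), for Krt8 Esrp1 (0.804), an epithelial splicing regulator, Lynx1 (0.794) and Zcchc6 (0.779), for Krt18 Fosl1 (0.847), Hdac11 (0.812) and Ppp4r1l-ps (0.811), and for Krt19 2210011C24Rik (0.880), Cadm2 (0.842) and Hsf4 (0.824). No gene stood among the 3 for more than 1 member. These genes are the best of 14495 candidates over 19 libraries, so their values are high by selection.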

How the data were processed

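The authors extracted lung RNA with TRIzol, mapped 36-base read pairs to mm10 in CLC Genomics Workbench and deposited unscaled counts for each gene, which were used here. The labels name kits for depletion of ribosomal RNA and for strand-specific libraries, while the series description names an mRNA kit, and this was not resolved. A further 38 columns of normalized or transformed values over the 19 libraries were not used, nor were the authors' comparison columns, which hold fold changes and p-values. Of 49585 genes, 26540 had no count, and no pair of libraries held identical values. Column names show the group but no replicate number.

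The model was edgeR 4.0.16 (limma 3.58.1, R 4.3.3) with TMM factors, filterByExpr (10 counts, 15 in total, share 0.7) and quasi-likelihood tests of the 4 group means over all 19 libraries, on 15 residual degrees of freedom. Tests were two-sided with Benjamini-Hochberg adjustment over 14495 genes, and the cutoffs (0.01 for the adjusted p, 1.2 for the fold) are those of the study. The edgeR p-values set a difference of group means against the spread between mice, estimated over all 4 groups. Krt14 and Krt17, below the filter, were compared by exact permutation of libraries. Transcript lengths are from GENCODE M21 on mm10. The edgeR test of WT OVA against WT saline was run on simulated data with known changes. That check set a requirement only for its largest simulated fold, which exceeds that of every member called here. Alternatives were RLE factors, no filter, a stricter filter (20 counts, 4 libraries), DESeq2 1.42.0, an adjusted p under 0.05, only the groups compared, and each library left out. Total counts with no factors were added after seeing the data, as were fits that dropped 2 sets of libraries (12 with 13; 8 with 9 and 19). Named genes are the members, up to 4 genes per list with the smallest p in WT OVA against WT saline, the 3 genes most like each member, and Has2; 1 gene that the rule names is not reported here. Ngfr, Perp, Tgm3 and the thymus genes named lie outside this rule and were chosen after their values were seen. The members and lists were chosen with earlier results of these data known. Tables and plots were made with matplotlib 3.10.9, scipy 1.17.1, pandas 2.3.3 and numpy 2.4.6 under Python 3.11.15.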

Additional observations from a re-analysis of the deposited data

Results flagged for a closer look

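In a check of each member in each group for a library far from the others, 2 of 36 groups stood out, where chance gives about 5%. Krt15 was at 3.67 CPM in WT saline library 1, against 1.19 to 1.58 CPM in the other 4 WT saline libraries. Krt14 was at 0.157 CPM in Has2+/- OVA library 18, which is 1 count, against 0.321 to 0.384 CPM in the other 4 libraries of that group, which had 2 counts each.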

How the results depend on the processing

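Of the 4 members called in WT OVA against WT saline lungs, Krt7 and Krt19 were called under every alternative run. In a fit of only the groups compared 2 members were called, under a filter of 20 counts in 4 libraries 3, and leaving out each library in turn gave 2 to 4, with 2 without library 4, 11 or 14. In Has2+/- OVA against Has2+/- saline lungs 2 were called, 4 at an adjusted p under 0.05 (Trp63 and Krt8 added), and 2 to 3 with each library left out. No member was called between genotypes or in the interaction under any alternative, libraries left out included (0 to 0). Of the 8 exact tests of Krt14 and Krt17, 2 were under 0.05, and 1 to 2 with each library left out, with 1 without library 1, 3, 4, 5, 6, 7, 8 or 9. Of the 18 tests relative to pan-epithelial genes 11 were under 0.05, and 9 to 12 with each library left out. No called difference changed sign. Trp63, Krt5 and Krt15 rest on at most 37 counts per library, which limits them more than the simple keratins. No paired analysis was possible because the column names carry no replicate number.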
